A study of Rattus norvegicus with 12 samples.

Results

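The genes described here are 34 rat genes of the Nrf2 pathway and of the cell's antioxidant defence, among 15284 named genes on the array. They were listed by name from knowledge of the pathway, and glutathione transferases and efflux pumps were left out. The rule itself uses no measured value, but the genes were chosen with earlier results of these data known. Of the 34, 33 had a probe matched to their symbol, and all 33 were well above background on all 12 arrays. No probe was matched to Pgd, a dehydrogenase of the pentose phosphate pathway, and it is named only here. The tissue was renal cortex of male Sprague-Dawley (Crl:CD(SD)) rats, bought at 5 weeks of age. Bromodichloromethane (BDCM), a trihalomethane formed when water is chlorinated and a known kidney toxicant in rats, was given at 200 mg/kg/day for 4 weeks, and the control rats received corn oil. The rats were bled under anaesthesia 24 h after the last dose, in 2 experiments that differed in the gas. In the CO2-O2 experiment (4:1 mixture), 3 BDCM rats were set against 3 oil rats, and in the isoflurane experiment another 3 BDCM rats were set against another 3 oil rats. The anaesthetic and the experiment cannot be told apart.

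Nrf2, encoded by Nfe2l2, is a transcription factor that Keap1 holds in the cytoplasm and marks for breakdown by the proteasome. Oxidants and electrophiles modify cysteines of Keap1, Nrf2 then builds up in the nucleus, pairs with a small Maf protein such as Mafg and binds antioxidant response elements near its target genes. The targets reduce quinones and aldehydes, make glutathione, recycle thioredoxin and peroxiredoxins, supply NADPH and handle haem and iron. The proximal tubule, which makes up most of the renal cortex, is exposed to reactive metabolites because it takes up and cleaves glutathione conjugates.

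The core of the antioxidant response element, TGACNNNGC, was searched on both strands of the RefSeq promoters (build GRCr8, 250 bases before to 50 bases after each start). Of the 34 genes, 29 had a promoter in that table, and 8 of the 29 (27.6%) held the core, against 13.1% of 27457 symbols in the table and 12.1% of its 33469 promoters. The 6 promoters printed here are those of the 8 whose genes passed the test of BDCM against oil, so that the letters can be set beside the changes given further on. Gpx2 (chr6:101229988-101230096) and Txnrd1 (chr7:22755924-22756032, 1 of its listed starts) were higher in BDCM rats. Gclm (chr2:213031913-213032021), Blvra (chr3:134802715-134802823), Me1 (chr8:96540353-96540461) and Sod2 (chr1:50050145-50050253) were lower. The call of Blvra was kept under all 30 alternative settings described at the end. Those of Gpx2, Txnrd1, Gclm, Me1 and Sod2 were each lost under at least 1, that of Sod2 under 15. Gclm and Blvra lie on the plus strand and the others on the minus strand, each sequence is read 5′ to 3′ along its gene, and the capitals mark the core. It stands on the opposite strand, as its reverse complement, in all but Me1.
Gpx2: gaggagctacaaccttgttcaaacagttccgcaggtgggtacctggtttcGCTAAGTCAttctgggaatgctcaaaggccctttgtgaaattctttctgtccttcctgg
Txnrd1: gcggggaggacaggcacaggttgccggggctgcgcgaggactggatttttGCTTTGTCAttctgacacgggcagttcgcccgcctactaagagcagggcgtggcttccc
Gclm: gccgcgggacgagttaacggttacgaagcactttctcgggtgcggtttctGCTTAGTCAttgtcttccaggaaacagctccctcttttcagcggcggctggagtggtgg
Blvra: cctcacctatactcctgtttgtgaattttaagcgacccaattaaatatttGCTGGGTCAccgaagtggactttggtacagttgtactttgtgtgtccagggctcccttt
Me1: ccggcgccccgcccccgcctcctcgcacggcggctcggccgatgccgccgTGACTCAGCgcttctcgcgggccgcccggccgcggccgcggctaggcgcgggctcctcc
Sod2: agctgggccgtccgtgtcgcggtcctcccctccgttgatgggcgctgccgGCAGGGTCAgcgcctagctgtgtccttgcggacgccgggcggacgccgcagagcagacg
The capitals began 13 bases before the start of Gpx2, 78 before that of Txnrd1, 172 before that of Gclm, 145 before that of Blvra, 167 before that of Me1 and 35 before that of Sod2. The other matches were in Nfe2l2 and Prdx1, which did not pass the test. The windows of Nqo1, Akr1b8, Slc7a11 and Srxn1 held no match, which says only that these letters are not in those 300 bases.

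Labelled RNA of each rat was hybridised to one 1-colour array, and a level is given as relative signal, the spot's processed signal divided by the array's 75th percentile of it, or as its log2. The 75th percentiles lay between 1079.5 and 1476.5 across the arrays, 67.4% to 72.5% of probes were well above background, and 0 to 6 probes were saturated. The precision of each comparison is limited by the 3 rats a group. Differences are BDCM minus oil on the log2 scale with their standard error (SE), from limma over 34218 features, and a gene was called at a Benjamini-Hochberg adjusted p under 0.05. No slide held both experiments. Slide 1 held BDCM rat 2 and the 3 oil rats of the CO2-O2 experiment, and slide 4 held BDCM rats 1 and 2 and oil rat 3 of the isoflurane experiment. The other 3 slides held 1 treatment each. A difference within slide 1 thus rests on 1 BDCM rat, and that within slide 4 on 1 oil rat. The BDCM rat of slide 1 had the largest change of its group in 14 of the 23 genes called below, against 47.3% of all called features. Levels of different probes are not compared.

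BDCM changed 23 of the 33 measured genes, in both directions. In the mean of both experiments 13 were higher (39.4%), against 17.7% of all features, and 10 were lower (30.3%), against 20.4% of all features. The other 10 did not pass. The median effect of the 33 genes was 0.06, against -0.04 over all features. In the CO2-O2 experiment alone 7 genes were higher and 3 lower, where 10.0% and 9.89% of all features were called, and in the isoflurane experiment 9 were higher and 7 lower, where 13.2% and 12.9% were called. In 11 of the 33 genes every BDCM rat was higher than every oil rat of its experiment in both experiments, against 13.5% of all features. In 5 of the 33 every BDCM rat was lower in both, near the 13.1% of all features. These 16 genes are named in the paragraphs on their roles.

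**Figure D1:**
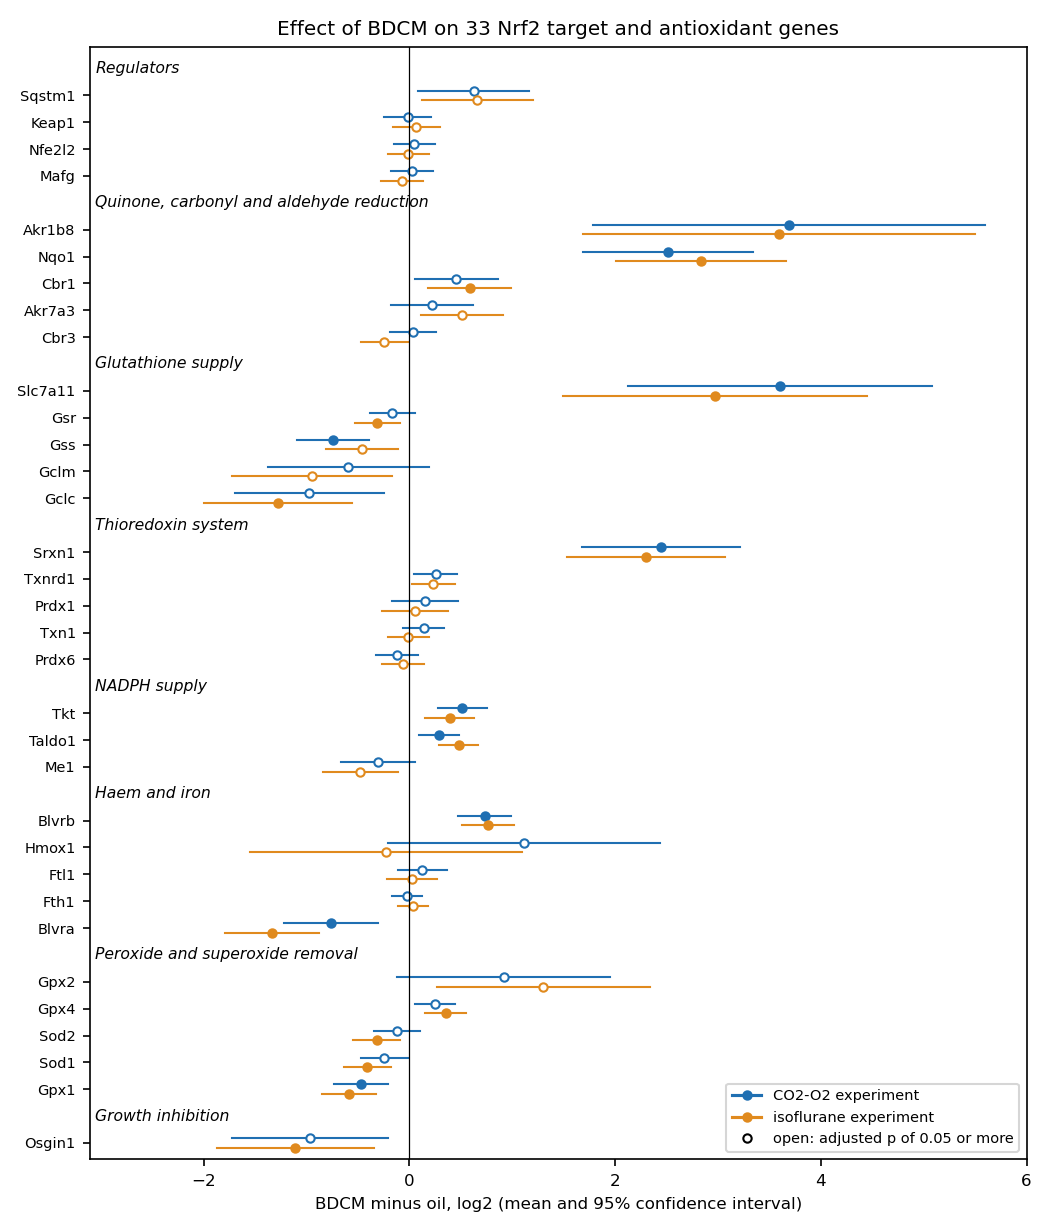
Effect of BDCM on each of the 33 genes, grouped by role (rows), as BDCM minus oil on the log2 scale (x axis) with the 95% confidence interval, in the CO2-O2 experiment (blue) and the isoflurane experiment (orange), 3 BDCM and 3 oil rats each. Filled points passed an adjusted p of 0.05; Akr1b8, Slc7a11, Nqo1 and Srxn1 lie furthest to the right in both experiments, and Gclc, Blvra and Osgin1 lie furthest to the left.

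Markers of other cells and of injury moved in the same rats, and their part in the results below was not tested. All 10 proximal tubule markers fell. In the CO2-O2 experiment their summed relative signal was 994 to 1172 in BDCM rats against 1586 and 1662 in oil rats 2 and 3. The sum of CO2-O2 oil rat 1, 1248, lacks Slc13a3, whose value is missing there, and is not comparable. In the isoflurane experiment the sum was 929.6 to 1308 in BDCM rats against 1736 to 1895 in oil rats. All 10 were well above background on all 12 arrays, which fits the label renal cortex. In bulk tissue, fewer cells of a type and less RNA per cell cannot be told apart. Of the injured tubule markers, Havcr1 and Spp1 rose and 3 others tested did not pass, with Krt20 well above background on 1 of 12 arrays. The list's sum was 52.6 to 176 in BDCM rats against 21.4 to 32.6 in oil rats of the CO2-O2 experiment, and 49.4 to 98.9 in BDCM rats against 22.8 to 30.6 in oil rats of the isoflurane experiment. The macrophage and leukocyte sums overlapped, at 90.2 to 132 in BDCM rats against 95.3 to 119.8 in oil rats (CO2-O2) and 78.1 to 102.8 in BDCM rats against 73.3 to 102.8 in oil rats (isoflurane). Most of each sum was the signal of Lyz2 (-0.003 ± 0.13, adjusted p = 0.99), so the sums say little of the other genes. Of the 7 tested genes 1 was called, Cd14, higher, and Cd163 was well above background on 2 arrays. All 3 red cell genes fell, with sums of 308 to 409 in BDCM rats against 472 to 533 in oil rats (CO2-O2) and 159 to 339 in BDCM rats against 369 to 512 in oil rats (isoflurane). The liver gene Alb did not follow the treatment: its log2 level ranged over 0.60 to 1.49 in BDCM rats and -1.44 to 1.66 in oil rats (CO2-O2), and over -8.07 to -0.69 in BDCM rats and -6.28 to -2.97 in oil rats (isoflurane). Of the other marker lists, 1 of 3 tested genes of the thick limb and distal tubule fell, and 1 of 5 of the collecting duct rose and 3 fell. For the glomerulus 4 of 5 fell, for the endothelium 1 of 4 fell, and of 7 hepatocyte genes 1 rose and 2 fell. All these marker counts are for the mean of both experiments, where 17.7% of all features were higher and 20.4% lower.

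Of the 4 regulators, 1 passed the test, where 17.7% of all features were higher and 20.4% lower. The mRNA of Nfe2l2, Nrf2 itself, had relative signals of 15.2, 16.5 and 14.4 in BDCM rats against 15.2, 15.3 and 14.2 in oil rats of the CO2-O2 experiment, and of 13.7, 14.2 and 13.2 in BDCM rats against 15.1, 12.4 and 14.0 in oil rats of the isoflurane experiment. The groups overlapped in both experiments, and the mean difference was 0.02 ± 0.06 (SE), with a 95% interval of -0.12 to 0.16 and an adjusted p of 0.85. Within slides 1 and 4 the differences were 0.15 and -0.01. Keap1, the sensor that holds Nrf2 back, had relative signals of 1.41, 1.11 and 1.27 in BDCM rats against 1.32, 1.21 and 1.29 in oil rats (CO2-O2), and of 1.38, 1.42 and 1.24 in BDCM rats against 1.19, 1.31 and 1.35 in oil rats (isoflurane). These groups overlapped too, with a mean difference of 0.03 ± 0.07, an interval of -0.13 to 0.19 and an adjusted p of 0.80. Mafg, the partner protein, differed by -0.02 ± 0.06 (adjusted p = 0.79). Sqstm1 encodes p62, an autophagy receptor that binds Keap1 and is itself an Nrf2 target. It was the regulator that rose, by 0.64 ± 0.17 (adjusted p = 0.014), and every BDCM rat was above every oil rat of its experiment, with relative signals of 27.7, 31.1 and 33.9 in BDCM rats against 18.2 to 20.9 in oil rats (CO2-O2) and of 29.4, 63.5 and 32.0 in BDCM rats against 22.2 to 26.7 in oil rats (isoflurane). With slide as a fixed block its adjusted p was 0.11.

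Of the 5 enzymes that reduce quinones, carbonyls and aldehydes, 4 rose and none fell, where 17.7% of all features were higher and 20.4% lower. Nqo1 reduces quinones by 2 electrons and is among the best known Nrf2 targets. Its relative signal was 1.07, 1.08 and 1.05 in BDCM rats against 0.228, 0.193 and 0.148 in oil rats (CO2-O2), and 1.56, 1.67 and 0.664 in BDCM rats against 0.138, 0.274 and 0.125 in oil rats (isoflurane). The 3 BDCM rats of the CO2-O2 experiment lay close together, and no BDCM rat overlapped an oil rat. The mean difference was 2.67 ± 0.26 (6.39-fold, 95% interval 4.26 to 9.58, adjusted p = 3.5e-05), and within slides 1 and 4 it was 2.53 and 3.69.

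Akr1b8 is an aldo-keto reductase that acts on lipid aldehydes. In BDCM rats its relative signal was 20.9, 51.4 and 32.0 against 0.840, 4.30 and 4.41 in oil rats (CO2-O2), and 22.6, 101 and 36.0 in BDCM rats against 5.34, 7.53 and 1.17 in oil rats (isoflurane). Both groups spread widely, yet the lowest BDCM rat of each experiment was above the highest oil rat. It had the largest mean difference of the 33 genes, 3.64 ± 0.61 (12.5-fold, interval 4.90 to 31.8, adjusted p = 0.0011), and 4.35 and 5.36 within slides 1 and 4. The only oil rat on slide 4 was isoflurane oil rat 3, at 1.17 the lowest of its group. Cbr1, a carbonyl reductase of the cytosol, rose by 0.52 ± 0.13 (adjusted p = 0.0091) without overlap, and by 0.82 with slide as a fixed block (adjusted p = 0.012). Its relative Cbr3 did not pass, at -0.10 ± 0.07 (adjusted p = 0.29). Akr7a3, a reductase of aflatoxin aldehyde in rat liver, was 0.37 ± 0.13 higher (adjusted p = 0.044). That call was lost without any 1 of 8 rats, namely CO2-O2 oil rats 2 and 3, CO2-O2 BDCM rats 1 and 3, isoflurane oil rats 1 and 3 and isoflurane BDCM rats 1 and 2, with adjusted p between 0.051 and 0.096 for Akr7a3. It was also lost with array weights (adjusted p = 0.052), scan day (0.061) or slide (0.14) as a fixed block and quantile normalization, which gave a difference of 0.09 (adjusted p = 0.58).

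The genes of glutathione supply divided: the cystine transporter rose and the 4 enzymes fell, where 17.7% of all features were higher and 20.4% lower. Slc7a11 encodes the exchanger that brings in cystine, the source of cysteine for glutathione. Its relative signal was 0.103, 0.542 and 0.449 in BDCM rats against 0.0252, 0.0222 and 0.0252 in oil rats (CO2-O2), and 0.0881, 0.508 and 0.214 in BDCM rats against 0.0278, 0.0258 and 0.0279 in oil rats (isoflurane). All 6 oil rats were close to each other, and BDCM rat 1 of each experiment was the lowest of its treated group and still above every oil rat. The mean difference was 3.28 ± 0.47 (9.74-fold, interval 4.72 to 20.1, adjusted p = 4.6e-04), and 4.49 and 2.92 within slides 1 and 4. Its signal in oil rats was low, and under normexp background correction the difference of Slc7a11 was 1.86 (adjusted p = 0.0017).

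Gclc is the catalytic subunit of glutamate-cysteine ligase, the rate-limiting enzyme of glutathione synthesis. For this gene the relative signal was 157, 60.2 and 67.8 in BDCM rats against 180.4, 180.5 and 148 in oil rats (CO2-O2), and 53.3, 32.4 and 50.7 in BDCM rats against 115, 113 and 94.4 in oil rats (isoflurane). BDCM rat 1 of the CO2-O2 experiment lay within its oil group, and the other 5 BDCM rats lay below their oil rats. In the mean it differed by -1.12 ± 0.23 (0.46-fold, adjusted p = 0.0036), and -1.49 and -1.19 within slides 1 and 4. Gclm, the modifier subunit of the same enzyme, was 0.77 ± 0.25 lower in BDCM rats (adjusted p = 0.032). Its signal was low on every array, and leaving out any 1 of 7 rats (CO2-O2 oil rats 1 and 2, CO2-O2 BDCM rats 2 and 3, isoflurane oil rats 1 and 2, isoflurane BDCM rat 2) lost the call for Gclm, with adjusted p between 0.051 and 0.072. Under normexp background correction its difference was -0.39 (adjusted p = 0.032), and a fixed block for scan day gave -1.21 (adjusted p = 0.0077). Gss, which adds glycine to complete glutathione, fell by 0.60 ± 0.11 (adjusted p = 0.0021), and Gsr, which reduces oxidised glutathione, fell by 0.24 ± 0.07 (adjusted p = 0.021). Neither overlapped in any experiment. Without CO2-O2 oil rat 1 or isoflurane oil rat 2 the adjusted p of Gsr was 0.050 in both cases, just over the threshold, and under normexp background correction its difference was -0.13 (adjusted p = 0.25). The 10 proximal tubule markers fell in the same rats, and a link to these genes was not tested.

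Among the 5 genes of the thioredoxin system, 2 rose and none fell, where 17.7% of all features were higher and 20.4% lower. Srxn1, sulfiredoxin, repairs overoxidised peroxiredoxins. Its relative signal was 7.74, 13.9 and 13.8 in BDCM rats against 1.90, 1.68 and 2.85 in oil rats (CO2-O2), and 8.11, 18.5 and 10.3 in BDCM rats against 2.77, 1.80 and 2.60 in oil rats (isoflurane). Every BDCM rat was above every oil rat, and BDCM rat 1 was again the lowest treated rat of each experiment. The mean difference was 2.37 ± 0.24 (5.19-fold, interval 3.56 to 7.55, adjusted p = 4.9e-05), and 2.73 and 2.24 within slides 1 and 4. Txnrd1, the reductase of cytosolic thioredoxin, was 0.24 ± 0.07 higher (adjusted p = 0.014) by its brightest probe, with no overlap. Its 3 other probes did not pass, and the mean of its probes gave 0.08 (adjusted p = 0.50). The substrate Txn1 (0.06 ± 0.06, adjusted p = 0.46) and the peroxiredoxins Prdx1 (0.10 ± 0.10, adjusted p = 0.45) and Prdx6 (-0.09 ± 0.06, adjusted p = 0.30) did not pass.

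Of the 3 measured genes grouped under NADPH supply, the 2 of the pentose phosphate pathway rose and the malic enzyme Me1 fell. Over all features 17.7% were higher and 20.4% lower. Tkt and Taldo1, transketolase and transaldolase, carry the non-oxidative branch of the pentose phosphate pathway. Tkt rose by 0.45 ± 0.08 (adjusted p = 0.0012) and Taldo1 by 0.38 ± 0.06 (adjusted p = 8.7e-04), both without overlap in either experiment. Under quantile normalization the differences were 0.27 for Tkt (adjusted p = 0.0097) and 0.24 for Taldo1 (adjusted p = 0.0078). Within single experiments, the CO2-O2 call of Taldo1 (adjusted p = 0.041) was lost without any 1 of CO2-O2 oil rats 1, 2 and 3, CO2-O2 BDCM rats 2 and 3, isoflurane oil rats 1 and 3 and isoflurane BDCM rat 1, and the isoflurane call of Tkt (adjusted p = 0.025) without any 1 of isoflurane oil rats 1 and 3 and isoflurane BDCM rat 2. Tkt had relative signals of 265 to 292 in BDCM rats against 184 to 205 in oil rats (CO2-O2) and of 240 to 299 in BDCM rats against 183 to 225 in oil rats (isoflurane). Me1, the cytosolic malic enzyme, was 0.39 ± 0.11 lower in BDCM rats (adjusted p = 0.022). Without CO2-O2 oil rat 3 the adjusted p of Me1 was 0.052. Its brightest probe was called for neither experiment, while its other probes were called under isoflurane (adjusted p = 0.027 and 0.016).

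The 5 genes of haem and iron gave 1 rise and 1 fall, near the shares of all features (17.7% higher and 20.4% lower). Hmox1, haem oxygenase 1, opens the haem ring and is induced by many stresses. Its relative signal was 0.760, 0.800 and 0.884 in BDCM rats against 0.513, 0.333 and 0.308 in oil rats (CO2-O2), and 0.409, 0.803 and 0.620 in BDCM rats against 0.393, 2.29 and 0.364 in oil rats (isoflurane). The groups did not overlap under CO2-O2, whereas isoflurane oil rat 2 stood above all other rats. The mean difference of Hmox1 was 0.44 ± 0.42 (adjusted p = 0.44). Without isoflurane oil rat 2 it was 0.88 (adjusted p = 0.0071), the only 1 of 30 alternatives in which the mean passed. For the isoflurane experiment the difference was -0.23 ± 0.59 (adjusted p = 0.81). It passed under none of the 31 alternatives for that experiment, including the 1 without that rat. Within slides 1 and 4, which do not hold that rat, the differences were 1.09 and 0.66.

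Blvra and Blvrb are both biliverdin reductases, and moved in opposite directions. Blvra, the form that makes bilirubin from the product of haem oxygenase, had relative signals of 3.51, 1.77 and 2.19 in BDCM rats against 4.12, 4.39 and 3.64 in oil rats (CO2-O2), and of 1.14, 1.11 and 1.29 in BDCM rats against 3.15, 2.96 and 2.84 in oil rats (isoflurane). No BDCM rat overlapped an oil rat, though CO2-O2 BDCM rat 1 was just under the lowest of its oil group. The mean difference was -1.05 ± 0.15 (0.48-fold, adjusted p = 3.8e-04), and -1.19 and -1.34 within slides 1 and 4. Blvrb, also known as flavin reductase and abundant in red cells, rose by 0.75 ± 0.08 (1.68-fold, adjusted p = 7.2e-05), with relative signals of 11.8 to 14.3 in BDCM rats against 7.03 to 8.40 in oil rats (CO2-O2) and of 14.1 to 17.6 in BDCM rats against 8.51 to 9.48 in oil rats (isoflurane). The 3 red cell genes fell in these rats, and a link to Blvrb was not tested. The ferritin chains, which store iron, did not pass by their brightest probes, at 0.08 ± 0.08 for Ftl1 (adjusted p = 0.46) and 0.01 ± 0.05 for Fth1 (adjusted p = 0.92). The Ftl1 probe was saturated in isoflurane BDCM rats 1 and 2, and the mean of the 5 Ftl1 probes was 0.25 higher (adjusted p = 0.024).

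All 5 enzymes that remove peroxides and superoxide passed, 2 higher and 3 lower, where 17.7% of all features were higher and 20.4% lower. Gpx2, a glutathione peroxidase known mainly from the gut and a reported Nrf2 target, had relative signals of 13.0, 14.7 and 33.5 in BDCM rats against 5.09, 15.6 and 12.0 in oil rats (CO2-O2), and of 26.1, 32.2 and 33.5 in BDCM rats against 7.88, 15.1 and 15.7 in oil rats (isoflurane). The groups overlapped under CO2-O2 and were apart under isoflurane. In the mean it differed by 1.11 ± 0.33 (2.16-fold, interval 1.30 to 3.58, adjusted p = 0.023), and within slides 1 and 4 by 0.58 and 0.89. In the fit of all 12 arrays its effect passed for neither experiment. With each experiment fitted alone the isoflurane effect passed. Without isoflurane oil rat 1 the adjusted p of Gpx2 was 0.052, and with slide as a fixed block it was 0.35. Gpx4, which reduces lipid hydroperoxides in membranes, rose by 0.30 ± 0.06 (adjusted p = 0.0038) without overlap, and under quantile normalization its difference was 0.09 (adjusted p = 0.26).

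Gpx1, the main cytosolic glutathione peroxidase, fell by 0.53 ± 0.08 (0.69-fold, adjusted p = 8.5e-04), with relative signals of 174 to 197 in BDCM rats against 235 to 271 in oil rats (CO2-O2) and of 154 to 208 in BDCM rats against 267 to 295 in oil rats (isoflurane). Sod1, the cytosolic superoxide dismutase, fell by 0.33 ± 0.07 (adjusted p = 0.0055) and also did not overlap, with -0.55 under quantile normalization (adjusted p = 4.1e-04). Sod2, the mitochondrial form, was 0.22 ± 0.07 lower in BDCM rats by its brightest probe (adjusted p = 0.035). That call was lost without any 1 of 8 rats (all 6 oil rats and CO2-O2 BDCM rats 2 and 3), with adjusted p between 0.050 and 0.077. Its other probe gave -0.27 in the mean (adjusted p = 0.0022) and was called in both experiments (adjusted p = 0.043 under CO2-O2 and 0.013 under isoflurane). The proximal tubule markers fell in the same rats, and a link to these enzymes was not tested.

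Osgin1 encodes a growth inhibitor induced by oxidative stress and counted among Nrf2 targets. Its relative signal was 3.74, 1.61 and 1.49 in BDCM rats against 5.20, 4.34 and 2.96 in oil rats (CO2-O2), and 1.49, 1.01 and 1.33 in BDCM rats against 3.31, 2.51 and 2.39 in oil rats (isoflurane). CO2-O2 BDCM rat 1 lay within its oil group, and the other 5 BDCM rats lay below theirs. The mean difference was -1.04 ± 0.24 (0.49-fold, adjusted p = 0.0071), and -1.33 and -0.97 within slides 1 and 4. With slide as a fixed block the adjusted p of Osgin1 was 0.072.

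**Figure D2:**
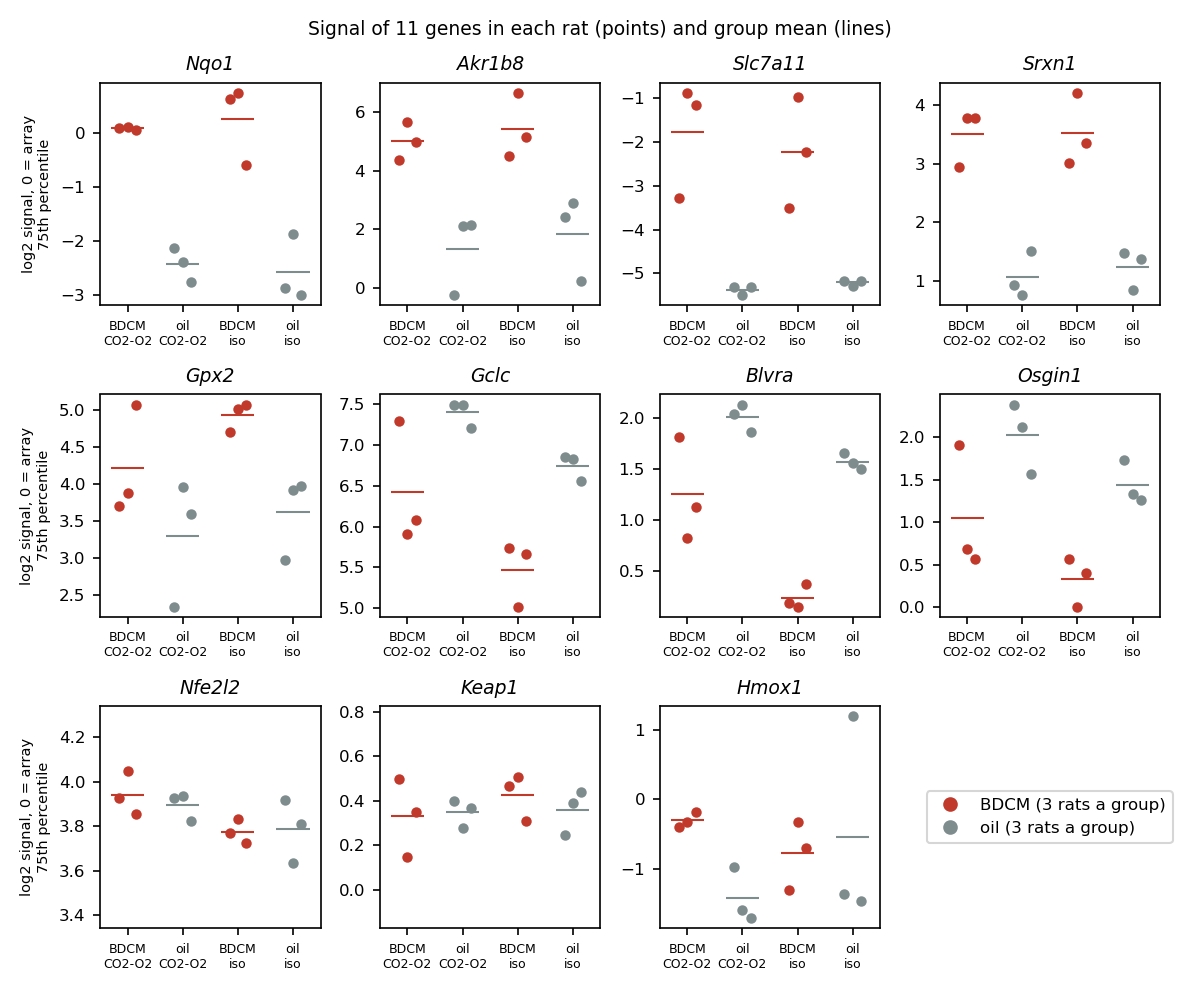
Log2 signal relative to the array's 75th percentile (y axis, own range for each gene) in each rat (points) and as group mean (lines) for 11 genes, with BDCM in red and oil in grey. Nqo1, Akr1b8, Slc7a11 and Srxn1 have no overlap between BDCM and oil rats, Gclc and Osgin1 have 1 high BDCM rat under CO2-O2, and 1 oil rat of the isoflurane experiment is highest for Hmox1.

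The treated rats differed in how far these genes moved. Set against the mean of its own oil rats, CO2-O2 BDCM rat 1 had the smallest change, in the direction of the call, of the 3 treated rats in 19 of the 23 called genes, where the same rat was smallest in 52.5% of all called features. Its Gclc differed from the oil mean by -0.11, against -1.49 and -1.32 in BDCM rats 2 and 3, while its Nqo1 differed by 2.52, close to the 2.53 and 2.49 of those rats. In the isoflurane experiment BDCM rat 1 was smallest in 13 of the 23 genes (56.5%), near the 54.3% of all called features. BDCM rat 2 was largest in 18 of the 23 (78.3%), near the 73.6% of all called features. For Nqo1, isoflurane BDCM rat 3 changed least, by 1.98 against 3.21 and 3.32 in rats 1 and 2. No link was tested to Havcr1, the kidney injury marker, which was lowest in BDCM rat 1 of each treated group. Its log2 level was -0.63, 1.04 and 1.20 in BDCM rats 1, 2 and 3 of the CO2-O2 experiment and -2.22, 0.64 and 0.09 in those of the isoflurane experiment, against -5.19 to -3.63 over the 6 oil rats.

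**Figure D3:**
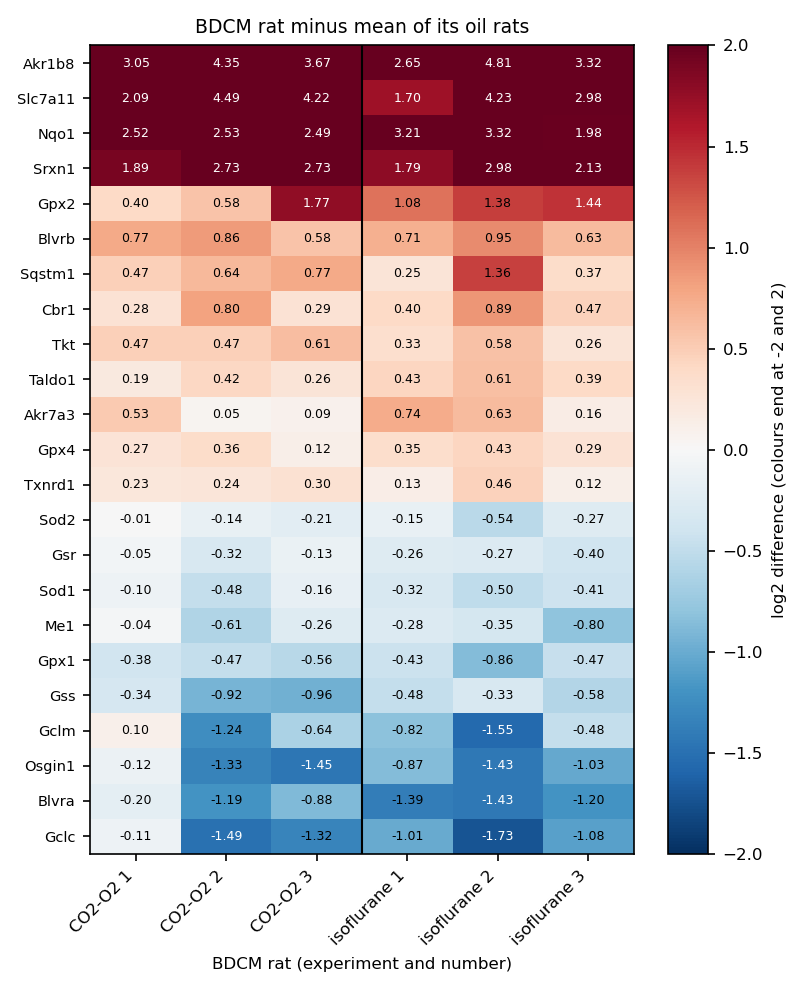
Difference of each BDCM rat (columns) from the mean of the 3 oil rats of its experiment, on the log2 scale (colour and printed value), for the 23 called genes (rows, highest to lowest mean difference). CO2-O2 rat 1 is pale for the genes at the bottom, at -0.11 for Gclc against -1.49 and -1.32 in the 2 other rats of its group.

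Several probes of a gene served as a check on single probes. The 33 genes had 70 probes, and 19 genes had several that were tested. In 12 of the 19 every tested probe was called the same way, and in 3 (Nfe2l2, Mafg and Cbr3) none was called. The second probe of Nqo1 gave 2.25, that of Slc7a11 3.25, that of Srxn1 2.15 and that of Gclc -1.39, each in the direction of the probe used. That probe of Slc7a11 was dim, at a mean log2 signal of -6.67. Of the 3 Slc7a11 probes 2 were tested, the other not being well above background throughout any group. The 4 genes whose probes gave different calls were Sqstm1, with 1 of its 5 probes at 0.55 and an adjusted p of 0.053, Txnrd1, Ftl1 and Fth1. For Txnrd1 the probe used was the called one. For Ftl1 3 of 5 probes were called, at 0.29, 0.30 and 0.39, and for Fth1 1 of 4, at 0.17.

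**Figure D4:**
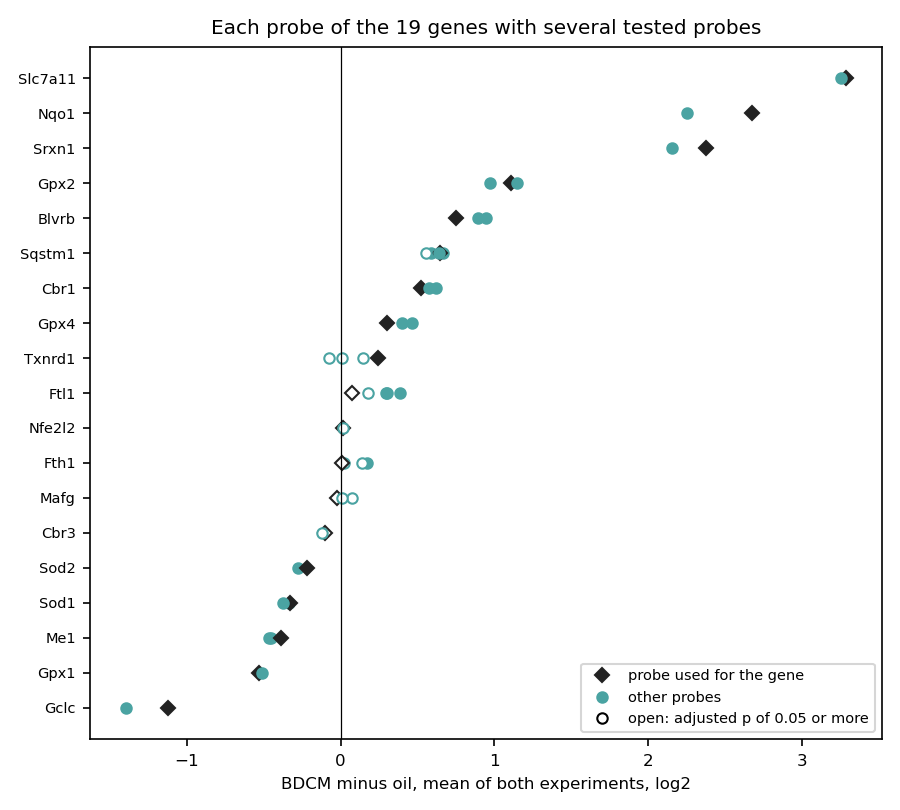
BDCM minus oil in the mean of both experiments (x axis, log2) for every tested probe of the 19 genes with several (rows), with diamonds for the probe used for the gene and circles for the others, filled where the adjusted p was under 0.05. The probes of a gene lie close together and on the same side of 0 for most genes, and those of Txnrd1 straddle 0.

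The effect of BDCM was also compared between the experiments, as isoflurane minus CO2-O2. No member and no feature passed in either direction (0% of 34218 features each way, limma with Benjamini-Hochberg adjustment). At an unadjusted p under 0.05 there were 0 of the 33 genes and 1731 features (5.06%). The difference was -1.34 ± 0.84 for Hmox1 (unadjusted p = 0.14), -0.58 ± 0.29 for Blvra (unadjusted p = 0.074) and -0.28 ± 0.14 for Cbr3 (unadjusted p = 0.080), the 3 named here because of their size or p. Missing the threshold does not show that the effects were alike.

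Genes of 4 further lists, also chosen with earlier results of these data known, were read against the shares over all features. In the mean of both experiments these were 17.7% higher and 20.4% lower. Of 9 other regulators of Nrf2, 4 rose (44.4%), 2 fell (22.2%, near the share of all features) and 3 did not pass, with a median effect of 0.04. Maff, a small Maf protein, rose by 0.96 ± 0.18 (adjusted p = 0.0026), Nfe2l1, the relative of Nrf2 that controls proteasome genes, by 0.73 ± 0.12 (adjusted p = 0.0010), and Bach1, the repressor that competes for the same DNA element, by 0.32 ± 0.10 (adjusted p = 0.032). Dpp3, which binds Keap1, fell by 0.30 ± 0.04 (adjusted p = 5.3e-04), and Cul3, the ubiquitin ligase scaffold that acts with Keap1, fell by 0.17 ± 0.05 (adjusted p = 0.026). These values stand beside Nfe2l2 and Keap1, which did not pass.

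Of 19 other reported Nrf2 targets, 7 rose (36.8%, against 17.7% of all features), 4 fell (21.1%, near the 20.4% of all features) and 8 did not pass (median 0.01). Ephx1, microsomal epoxide hydrolase, rose by 1.78 ± 0.23 (3.44-fold, adjusted p = 2.2e-04), and Pir, pirin, by 1.74 ± 0.15 (3.34-fold, adjusted p = 1.4e-05). Akr7a2 (-0.91 ± 0.10, adjusted p = 9.2e-05), Akr1a1 (-0.55 ± 0.07, adjusted p = 2.0e-04) and Aldh1a1 (-0.31 ± 0.05, adjusted p = 0.0010), which reduce or oxidise aldehydes, fell.

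Of 25 other thiol, peroxide and superoxide enzymes, 22 were tested, of which 3 rose (13.6%, under the 17.7% of all features), 9 fell (40.9%, against 20.4%) and 10 did not pass (median -0.18). The rises were small, at 0.42 ± 0.10 for Prdx4, the peroxiredoxin of the endoplasmic reticulum (adjusted p = 0.0075), 0.18 ± 0.05 for Prdx2 (adjusted p = 0.016) and 0.17 ± 0.05 for Glrx3 (adjusted p = 0.015). Msra (-0.94 ± 0.18, adjusted p = 0.0027) and Msrb1 (-0.78 ± 0.11, adjusted p = 4.5e-04), which repair oxidised methionine, fell, as did Gpx3 (-0.72 ± 0.12, adjusted p = 0.0011), the secreted glutathione peroxidase made by proximal tubule cells. Of 11 genes of iron and haem handling 1 rose (9.09%, under the 17.7% of all features), 3 fell (27.3%, against 20.4%) and 7 did not pass (median -0.01). The rise was that of Slc40a1, the iron exporter ferroportin, at 0.57 ± 0.08 (adjusted p = 5.1e-04). Aco1, which is also iron regulatory protein 1 (-0.92 ± 0.12, adjusted p = 2.2e-04), Hmox2, the constitutive haem oxygenase (-0.39 ± 0.07, adjusted p = 0.0023), and Ncoa4, the ferritin autophagy receptor (-0.38 ± 0.11, adjusted p = 0.023), fell.

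**Figure D5:**
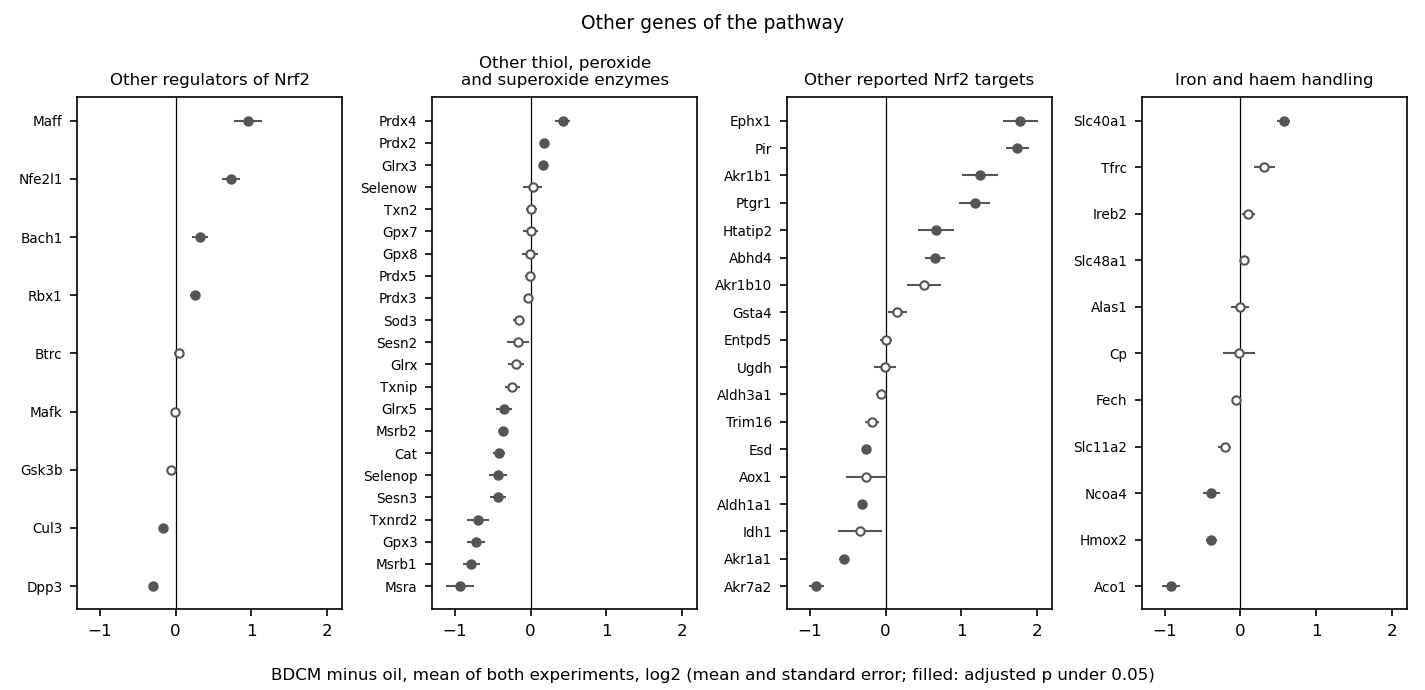
BDCM minus oil in the mean of both experiments (x axis, log2, with standard error) for the tested genes of 4 further lists of the pathway (1 gene not shown), 6 BDCM and 6 oil rats, with filled points where the adjusted p was under 0.05. Of the genes shown, Ephx1 and Pir lie furthest to the right at 1.78 and 1.74, and Msra, Aco1 and Akr7a2 furthest to the left at -0.94, -0.92 and -0.91.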

How the data were processed

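Renal cortex RNA of 12 rats was measured on 12 single-colour Agilent arrays of 62976 spots. The deposited intensity values were made by the authors with Agilent Feature Extraction 10.7.1.1, per the file headers, which subtracts background to give the processed signal. The series also has a value table that the authors deposited, used only as an alternative: its values are a linear ratio, the processed signal over the array's 75th percentile, found by comparison with the scanner files. There, 6 isoflurane columns equalled their own rat's file and 6 CO2-O2 columns equalled another rat of the same group, so the scanner files were used.

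From the scanner files, control spots, 84 spike-in probes and spots flagged as outliers (54 missing values) were left out, and each array's log2 75th percentile was subtracted from its log2 processed signals. Probes were named by matching their RefSeq accession to the symbols of assembly GRCr8, which named 27460 of 61657 probes. A gene was represented by its probe of highest mean signal. The filter kept 34218 of 49397 features, those well above background throughout at least 1 group of 3 arrays. limma 3.58.1 in R 4.3.3 (lmFit, eBayes) fitted 1 mean for each of the 4 groups. BDCM was set against oil within each experiment, and the mean (with equal weights) and the difference of the 2 effects were tested, with Benjamini-Hochberg adjustment over all features. The code was checked on data drawn with known differences. The design text calls the replicates biological. The p-values rest on the spread between rats within groups, pooled by limma over all 4 groups of 3 rats and moderated across features. A p-value for 1 experiment thus also uses the spread of the other experiment's rats.

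The genes and the other lists were chosen with earlier results of these data known. Values for every rat are given for genes called in the mean with a change of at least 1 on the log2 scale, and for Nfe2l2, Keap1 and Hmox1. From each other list up to 3 called genes a direction, by size, are named, except 1 gene that enters the counts and is not reported here. Alternatives were another scaling, background correction, filter, probe rule, slide or scan day as a block, array weights, a replicate block, a threshold of 0.01 and leaving out each rat. Normexp used median spot signals.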

Additional observations from a re-analysis of the deposited data

How the results depend on the processing

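Of the 23 genes called in the mean of both experiments, 13 kept their call and direction under all 30 alternatives. The other 10 lost it under at least 1, Akr7a3 and Sod2 most often, under 15 each. Txn1, not called with the main setting, was called in the opposite direction under quantile normalization (-0.20, adjusted p = 0.021). The counts that moved by over 1.5 times were these. With slide as a fixed block 8327 features were called in the mean, 3167 under CO2-O2 with 4 members higher, 2715 under isoflurane with 4 members higher and 1 lower, and 11 for the difference between experiments. With scan day as a fixed block 4104 were called under CO2-O2 and 20 for the difference. At a threshold of 0.01, 8117 features were called in the mean with 6 members lower, 2850 under CO2-O2 with 0 members lower, and 4222 under isoflurane with 5 members higher and 2 lower. Members lower were 5 under CO2-O2 with quantile normalization, 1 under CO2-O2 with each experiment fitted alone and 4 under isoflurane with no filter. Leaving out each rat in turn gave 11189 to 13101 features in the mean with 11 to 14 members higher and 7 to 10 lower. Under CO2-O2 it gave 3901 features (without oil rat 3) to 7743, with 5 to 9 members higher and 1 (without oil rat 2) to 5 (without BDCM rat 1) lower. Under isoflurane it gave 5446 features (without BDCM rat 2) to 9123, with 5 (without BDCM rat 2) to 10 members higher and 2 (without oil rat 2) to 10 (without BDCM rat 1 of the other experiment) lower, and 0 to 1 features for the difference. The cause of these moves was not tested, beyond the smaller number of rats or the stricter threshold that some settings impose by construction. Replicate numbers are shared between groups. Deviations from the group means had correlations of -0.02 to 0.05 between same-numbered rats and of -0.085 to 0.05 between the others. With 3 rats a group this cannot decide whether the numbers pair the rats, and the main fit did not pair them. With a replicate block 11222 features were called in the mean, with 13 members higher and 9 lower. Sod2 was the member that lost its call (adjusted p = 0.093). Chosen after seeing the data, using the brightest unsaturated probe left 13 members higher and 10 lower, with Ftl1 at 0.18 (adjusted p = 0.058), and leaving out both isoflurane rats with the highest albumin of their group (BDCM rat 1 and oil rat 3) left 12 higher and 9 lower. With 3 rats a group, small effects such as those of Prdx1 or Txn1 are bounded only by their intervals.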
